A study of Macaca fascicularis with 10 samples.

Results

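The genes described here are the subunits of the oxidative phosphorylation machinery and a few helper genes that carry the same kinds of symbol. They were taken by symbol: every gene whose annotated name starts with NDUF, UQCR, ATP5 or COX4 to COX8, the SDHA to SDHD genes, and CYCS. 64 of the 14132 genes with a named probe set matched, and 63 of them entered the 11639 genes tested. COX4I2 was left untested because its signal was dim, at 11.8 to 92.6 on the 10 arrays, and no probe set named for CYCS alone was used. Each gene was read from its brightest probe set that carried no other symbol.

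Oxidative phosphorylation is the process by which mitochondria turn electrons from food into ATP. Complex I takes electrons from NADH and complex II takes them from succinate. Complex III passes them to cytochrome c, complex IV passes them to oxygen, and complex V uses the proton gradient that results to make ATP. Most subunits are encoded in the nucleus and a small core is encoded in mitochondrial DNA. Pluripotent stem cells are known for a strong use of glycolysis, and differentiated cells differ widely in how much they rely on respiration.

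RNA of 10 Macaca fascicularis samples had been measured on Affymetrix Rhesus Macaque arrays, 1 array per sample. 5 arrays held parthenogenetic haploid embryonic stem cells (PG-haESC): line MPH1 at passages 8, 11, 7 and 9 (arrays 1 to 4) and line MPH2 at passage 4 (array 5). 3 arrays held diploid embryonic stem cells from blastocysts made by intracytoplasmic sperm injection (ICSI ESC): MES1 at passage 12, MES2 at passage 4 and MES3 at passage 4. 2 arrays held diploid female somatic fibroblasts, both of a single source at passages 14 and 15. The growth protocol describes culture of the haploid cells on feeder cells with Y27635 and Thiazovivin and says nothing separate for the other groups. The descriptions give the MPH1 arrays a pair of codes, 1 for arrays 1 and 2 and another for arrays 3 and 4, and whether these are separate cultures or sublines is not stated. Nothing in the labels says that arrays came from separate animals, so p-values measure only the spread between these samples, which may be technical.

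The labels were checked against markers. Pluripotency genes averaged 11.44 to 12.23 in log2 signal on PG-haESC arrays, 11.34 to 12.01 on ICSI ESC arrays and 5.7 to 6.21 on fibroblast arrays. The 15 fibroblast genes averaged 12.34 to 12.36 on the fibroblast arrays, 8.84 to 11.1 on PG-haESC arrays and 8.85 to 12.39 on ICSI ESC arrays, where the highest value belonged to array 1. The arrays labelled fibroblast also carried markers of the outer skin: 12 of 13 were above the array median on both, with a mean of 13.19 to 13.25 against at most 6.25 on any stem cell array. KRT2, a keratin of the upper epidermis, read 50501 and 51488 there and 6.98 to 77.0 on stem cell arrays. Markers of adipocytes (10.29 to 10.33), leukocytes (9.57 to 9.58) and endothelium (8.4 to 8.66) were also higher there than on any stem cell array. The part of these other cell types, and of feeder cells on stem cell arrays, in the results below was not tested. In such bulk samples fewer cells of a type and less RNA per cell cannot be told apart.

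Complexes I, II, III and V each lay higher on every stem cell array than on both fibroblast arrays. The share of all genes without such overlap was not counted, here or for the single genes below. Genes tested with a mean signal of at least 1668 had a median log2 change of 0.63 over fibroblasts in each stem cell group. Nothing particular to a complex is therefore read from the lack of overlap. The level of a complex was taken as the mean log2 signal of its tested genes on an array. For complex I, with 24 genes, the 5 PG-haESC arrays read 12.35, 12.12, 12.17, 12.12 and 12.17, the ICSI ESC arrays 11.94, 12.21 and 12.15, and the fibroblast arrays 11.45 and 11.45. For complex V, with 14 genes, the values were 12.48, 12.45, 12.4, 12.42 and 12.32 in PG-haESC, 12.51, 12.38 and 12.47 in ICSI ESC, and 11.79 and 11.72 in fibroblasts. The gap between the lowest PG-haESC array and the higher fibroblast array was 0.66 for complex I, 0.25 for complex II, 0.49 for complex III and 0.53 for complex V. For the lowest ICSI ESC array the same gaps were 0.49, 0.27, 0.34 and 0.6. Of the 3 complex II genes, SDHB alone was higher on every stem cell array than on both fibroblast arrays. SDHA was lower on every stem cell array, and SDHC overlapped. The mean of all 9 complex IV genes overlapped, with 10.76 to 11.4 in PG-haESC, 10.8 to 11.1 in ICSI ESC and 10.92 to 11.03 in fibroblasts. That overlap rested on NDUFA4L2, a gene below the array median on every stem cell array. Without it the other 8 genes read 12.05, 11.96, 11.71, 11.96 and 12.02 in PG-haESC, 11.86, 11.6 and 11.72 in ICSI ESC, and 11.18 and 11.3 in fibroblasts. Every stem cell array then lay above both fibroblast arrays, with gaps of 0.42 for PG-haESC and 0.31 for ICSI ESC. These 8 still held COX6A2, a dim gene below the array median on both fibroblast arrays. The 7 genes above the array median on all arrays gave gaps of 0.38 and 0.24. Both subsets were looked at after the values were seen. The 6 NDUFAF genes, which assemble complex I but are no part of it, read 10.22 to 10.59, 10.06 to 10.26 and 9.83 to 9.9.

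**Figure D1:**
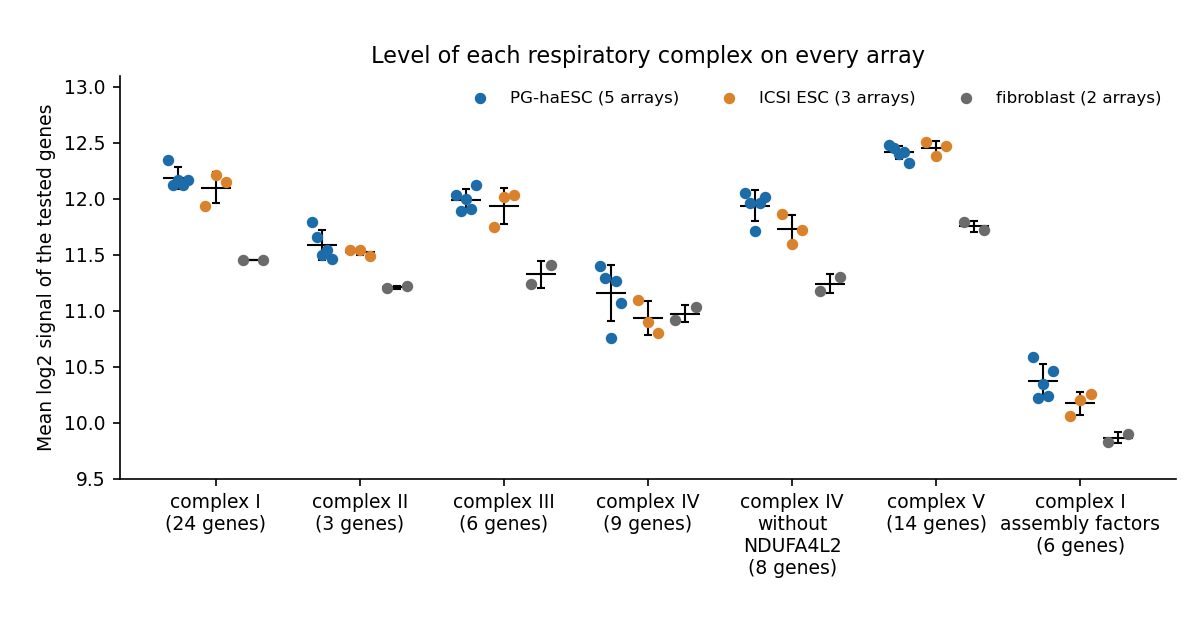
Mean log2 signal (vertical axis) of the tested genes of each complex, with 1 point per array; black lines are group means and bars are 1 SD. For complexes I, II, III and V every stem cell array lies above both fibroblast arrays, and for complex IV this holds once NDUFA4L2 is left out. Within complex II it holds for SDHB but not for SDHA or SDHC. Levels are to be read within a complex and not between complexes. The median of bright genes of all kinds was also higher in stem cells, so nothing particular to a complex is read here.

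Gene by gene, 33 of 63 members were higher in PG-haESC than in fibroblasts and 2 were lower (limma, adjusted p under 0.05), the latter COX7A1 and NDUFA4L2. Among all genes tested 23.0% were called higher and 17.3% lower. The members' median log2 change was 0.65, beside 0.06 for all genes. In ICSI ESC 28 members were higher and 3 lower, beside 22.6% and 17.0% of all genes, with a median log2 change of 0.55 beside 0.08. NDUFA4L2 entered the test only through the fibroblast arrays, and without it 1 member was lower in PG-haESC and 2 in ICSI ESC, the latter COX7A1 and NDUFAF3. Both comparisons use the same 2 fibroblast arrays. Averaging arrays per line leaves 1 value for the fibroblasts and 2 for PG-haESC, so the spread then comes from the stem cell lines alone. With arrays averaged per line the count of members higher was 17 in each comparison. Among members described below, this ended the calls of COX8A, NDUFA7, NDUFA8, NDUFB2, NDUFS3, NDUFV3, SDHB, UQCRC1 and UQCRC2 in PG-haESC. In ICSI ESC it ended those of ATP5G1, NDUFAF2, NDUFAF3, NDUFS3, SDHB, UQCRC1 and UQCRC2. It also ended both calls of NDUFA4L2. These shares have to be read beside signal level, because the members are bright. Of the 2728 genes tested whose mean signal was at least 1668, the lower quartile of the members' own mean signals, 48.72% were higher in PG-haESC than in fibroblasts, with a median log2 change of 0.63. For ICSI ESC the values were 48.09% and 0.63. Of the 47 members at that level, 29 (61.7%) were higher in PG-haESC, with a median log2 change of 0.67, and 25 (53.19%) in ICSI ESC, with a median of 0.57. The members' medians were thus close to those of genes of like brightness, and nothing particular to respiration is read from these counts. This comparison was added after the values were seen and is a description.

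**Figure D2:**
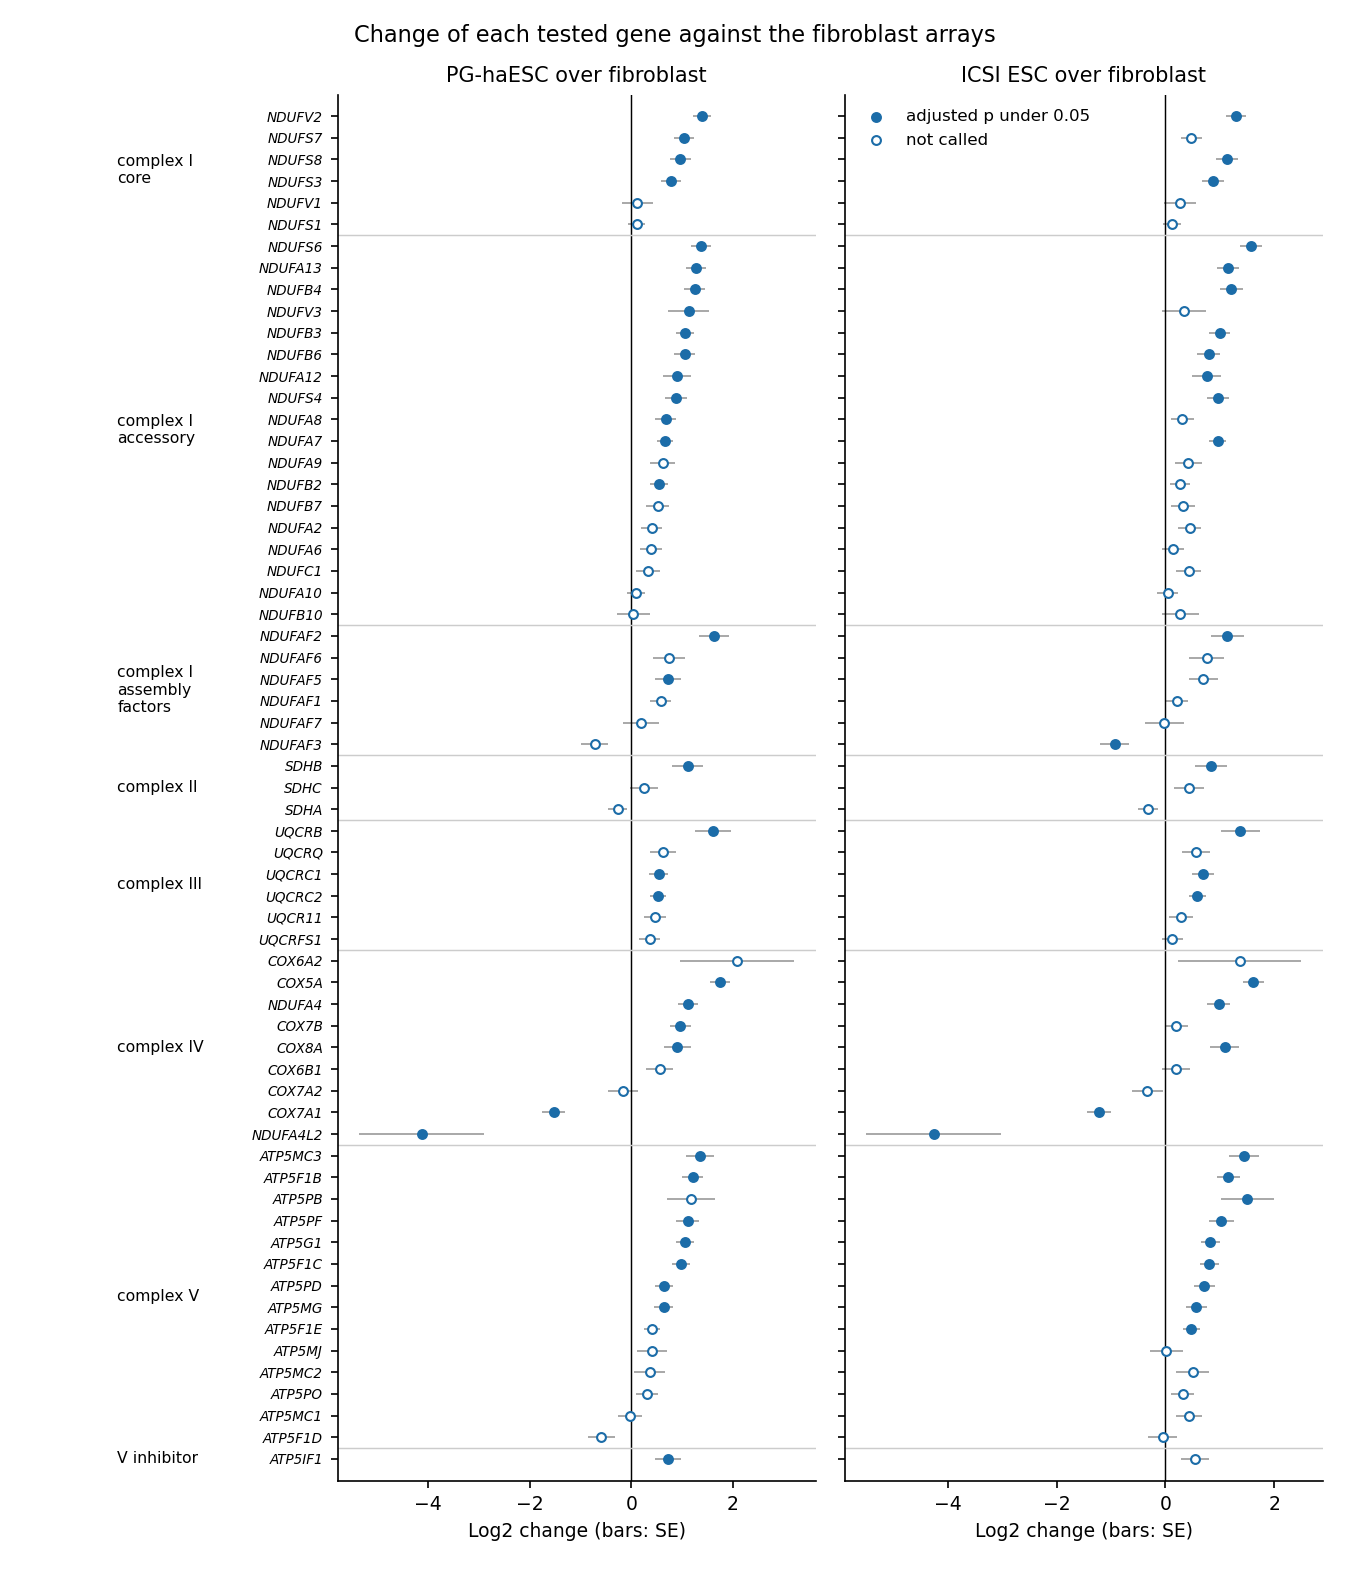
Log2 change of each of the 63 tested genes (rows, grouped by complex) in PG-haESC (left) and ICSI ESC (right) over the fibroblast arrays; bars are standard errors and filled points have an adjusted p under 0.05. Most points lie right of 0, and COX7A1 and NDUFA4L2 are called to the left of it in both panels, the latter a gene below the array median on all stem cell arrays.

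In complex I, 15 of 24 subunits were higher in PG-haESC and 11 of 24 in ICSI ESC, and none was lower. This count and those of the other complexes have to be read beside the shares called higher. These were 23.0% and 22.6% of all genes and 48.72% and 48.09% of bright genes, so nothing particular to a complex is read from the counts. The core subunits, which carry the electron path from NADH to ubiquinone, gave 4 of 6 and 3 of 6. NDUFV2, a core subunit with an iron-sulfur cluster, read 13220, 11328, 11622, 10645 and 10030 in PG-haESC, 9662, 11066 and 10726 in ICSI ESC, and 4158 and 4319 in fibroblasts. All stem cell arrays lay above both fibroblast arrays. Its log2 change was 1.39 ± 0.18 (SE, adjusted p = 7.8e-05) for PG-haESC and 1.30 ± 0.18 (adjusted p = 0.00014) for ICSI ESC. NDUFS8, another iron-sulfur subunit, changed by 0.97 and 1.13, and NDUFS3 by 0.78 and 0.87, all called. Both calls of NDUFS3 were lost with arrays averaged per line, and that in PG-haESC also without fibroblast array 2. With the mean of all its probe sets NDUFV2 turned to -0.16 and -0.06. NDUFV1, which binds NADH and FMN, gave 0.12 and 0.27 and was called in neither comparison. Its groups overlapped, with 879 to 1670 in PG-haESC, 1149 to 1432 in ICSI ESC and 945 to 1222 in fibroblasts.

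Among the 18 accessory subunits of complex I, which surround the core, 11 were higher in PG-haESC and 8 in ICSI ESC. NDUFS6, needed late in assembly, read 6837, 5523, 5970, 5631 and 7749 in PG-haESC, 6649, 7793 and 7981 in ICSI ESC, and 2404 and 2610 in fibroblasts. The stem cell values were all above the fibroblast values. The log2 changes were 1.37 ± 0.20 (adjusted p = 0.00021) and 1.57 ± 0.20 (adjusted p = 8.4e-05). NDUFA13, also known as GRIM-19, changed by 1.27 and 1.15, NDUFB4 by 1.25 and 1.21, NDUFB3 by 1.06 and 1.00 and NDUFA7 by 0.67 and 0.96, all called in both comparisons. NDUFA8 and NDUFB2 were higher in PG-haESC, with log2 changes of 0.68 and 0.54, and gave 0.31 and 0.27 in ICSI ESC, where neither was called. Both of these calls were lost without either fibroblast array, and that of NDUFB2 also without PG-haESC array 1, 3 or 4. That of NDUFA7 in PG-haESC was lost without fibroblast array 2, and that of NDUFS6 was lost with the mean of its probe sets. With that mean NDUFB4 turned to -0.33 and -0.48. The probe sets of NDUFS6 disagree. Another of them read 1023 to 1194 in PG-haESC, 844 to 1190 in ICSI ESC, and 2113 and 2326 in fibroblasts. It was called lower in both stem cell groups (limma), at -0.97 (adjusted p = 0.0036) and -1.12 (adjusted p = 0.0015). A further probe set gave -0.19 and -0.15 and was not called.

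Of the 6 assembly factors of complex I, NDUFAF2, which acts late in assembly, was higher in both stem cell groups. It read 1079, 1220, 1248, 914 and 1998 in PG-haESC, 916, 1010 and 928 in ICSI ESC, and 433 and 431 in fibroblasts, so no groups overlapped with the fibroblasts. The log2 changes were 1.63 ± 0.30 (adjusted p = 0.0011) and 1.14 ± 0.30 (adjusted p = 0.011), and the call in ICSI ESC was lost with arrays averaged per line. NDUFAF3 went the other way, with 1138, 1022, 903, 1002 and 1710 in PG-haESC, 1147, 909 and 1057 in ICSI ESC, and 2004 and 1941 in fibroblasts. It was called lower in ICSI ESC (log2 change -0.93 ± 0.27, adjusted p = 0.018) and missed the threshold in PG-haESC (-0.72 ± 0.27, adjusted p = 0.056). The call in ICSI ESC was lost without either fibroblast array, without ICSI ESC array 2, with arrays averaged per line and with arrays centred on their medians, with adjusted p up to 0.27 over the other settings.

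Complex II, which is also an enzyme of the citric acid cycle, had 3 measured subunits. SDHB, the iron-sulfur subunit, was the member called, with 6411, 7933, 5063, 5522 and 4382 in PG-haESC, 6386, 3876 and 3898 in ICSI ESC, and 2460 and 2662 in fibroblasts. Its log2 change was 1.11 ± 0.30 (adjusted p = 0.012) and 0.84 ± 0.30 (adjusted p = 0.047). The latter call was lost under 9 of 24 other settings, among them the removal of either fibroblast array, of ICSI ESC array 1 or of PG-haESC array 1, 3 or 4, and the former without fibroblast array 1. SDHA, the catalytic flavoprotein, read 1873 to 2366 in PG-haESC, 1804 to 2140 in ICSI ESC, and 2516 and 2392 in fibroblasts. Its stem cell arrays all lay below both fibroblast arrays, but the log2 changes of -0.27 (adjusted p = 0.31) and -0.32 (adjusted p = 0.22) did not pass the test. SDHC, a membrane anchor, gave 0.25 and 0.43 and was not called.

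In complex III, 3 of 6 subunits were higher in PG-haESC and the count in ICSI ESC was also 3. UQCRC1 and UQCRC2, the core proteins on the matrix side, changed by 0.54 (adjusted p = 0.048) and 0.52 (adjusted p = 0.025) in PG-haESC and by 0.69 (adjusted p = 0.017) and 0.59 (adjusted p = 0.014) in ICSI ESC. UQCRC1 read 7894, 7204, 6974, 6880 and 6211 in PG-haESC, 6292, 8873 and 7890 in ICSI ESC, and 4440 and 5031 in fibroblasts. These groups did not overlap, yet the call of UQCRC1 in PG-haESC was lost under 13 of 24 other settings, among them the removal of either fibroblast array, of PG-haESC array 1, 2, 3 or 4 or of ICSI ESC array 3. In ICSI ESC it was lost without ICSI ESC array 2 or fibroblast array 1, and the calls of UQCRC2 were lost without either fibroblast array. UQCRFS1, the Rieske iron-sulfur protein, gave 0.36 and 0.13 and was not called. UQCRB, which takes part in ubiquinone binding, changed by 1.61 ± 0.35 (adjusted p = 0.0037) and 1.38 ± 0.36 (adjusted p = 0.0098), from a dim probe set at 353 to 544 on stem cell arrays and 120 and 194 on fibroblast arrays. Its call in ICSI ESC was lost without fibroblast array 1. When all of its probe sets were averaged, UQCRB turned to -0.03 in PG-haESC.

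Of 9 tested complex IV genes, 4 were higher and 2 lower in PG-haESC, and 3 and 2 in ICSI ESC, where the lower genes were COX7A1 and NDUFA4L2. The largest log2 rise among all members called was that of COX5A. COX5A, a nuclear-encoded structural subunit, read 17189, 18271, 17361, 16934 and 12479 in PG-haESC, 13730, 14639 and 14595 in ICSI ESC, and 4635 and 4694 in fibroblasts. Every stem cell array was far above both fibroblast arrays. Its log2 change was 1.75 ± 0.19 (3.36-fold, adjusted p = 2.1e-05) in PG-haESC and 1.62 ± 0.19 (3.07-fold, adjusted p = 4.3e-05) in ICSI ESC. COX8A, a small membrane subunit, changed by 0.91 (adjusted p = 0.016) and 1.09 (adjusted p = 0.0064), and both calls were lost without fibroblast array 1. With the mean of all probe sets the call of COX5A in ICSI ESC was lost. COX6B1, on the intermembrane side, gave 0.56 and 0.19 and was not called.

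Complex IV holds pairs of related genes. COX7A1 is the form known from heart and skeletal muscle and COX7A2 the form found more broadly. COX7A1 read 915, 839, 739, 851 and 978 in PG-haESC, 1080, 914 and 1278 in ICSI ESC, and 2523 and 2527 in fibroblasts. Every stem cell array was below both fibroblast arrays, and the log2 change was -1.53 ± 0.22 (adjusted p = 0.00022) and -1.22 ± 0.22 (adjusted p = 0.0011). The call in PG-haESC held under all 24 other settings, with log2 changes of -1.6 to -1.2, and the call in ICSI ESC was lost with arrays centred on their medians (range of adjusted p up to 0.081). The brightest probe set of COX7A2 gave -0.16 and -0.33, was called in neither, and overlapped between groups. Its second tested probe set read 1236, 1007, 999, 1294 and 1025 in PG-haESC, 1400, 1580 and 1531 in ICSI ESC, and 729 and 662 in fibroblasts. That probe set was called higher in both, at 0.65 (adjusted p = 0.036) and 1.11 (adjusted p = 0.002), so the probe sets of COX7A2 disagree. Markers of striated muscle, where COX7A1 is best known, averaged 4.99 to 5.35 on the fibroblast arrays and 5.42 to 6.64 on stem cell arrays. Most of these 13 markers were dim. Only 1 was above the array median on both fibroblast arrays, and 3 were on every array of each stem cell group. The averages are therefore no ranking of the groups, and the part of muscle cells in the COX7A1 signal was not tested.

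NDUFA4, once counted with complex I and now known as a subunit of complex IV, read 13552, 10700, 14338, 14362 and 13534 in PG-haESC, 10503, 13013 and 12963 in ICSI ESC, and 5690 and 6585 in fibroblasts. Its log2 change was 1.12 ± 0.20 (adjusted p = 0.0011) and 0.98 ± 0.21 (adjusted p = 0.0028), with no overlap. NDUFA4L2, its relative known to be induced by hypoxia, read 72.8, 62.3, 8.85, 52.4 and 11.4 in PG-haESC, 33.2, 38.0 and 10.8 in ICSI ESC, and 443 and 468 in fibroblasts. All 8 stem cell values were below the median of their array, so NDUFA4L2 entered the test only through the fibroblast arrays. A gene let in by the group where it is high had to differ, so its call, though counted above, is no support and its values are a description. It was at least 4.84-fold lower in PG-haESC and at least 4.79-fold lower in ICSI ESC, with stem cell signals raised to the array median for this bound. The call in ICSI ESC was also lost without ICSI ESC array 3.

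**Figure D3:**
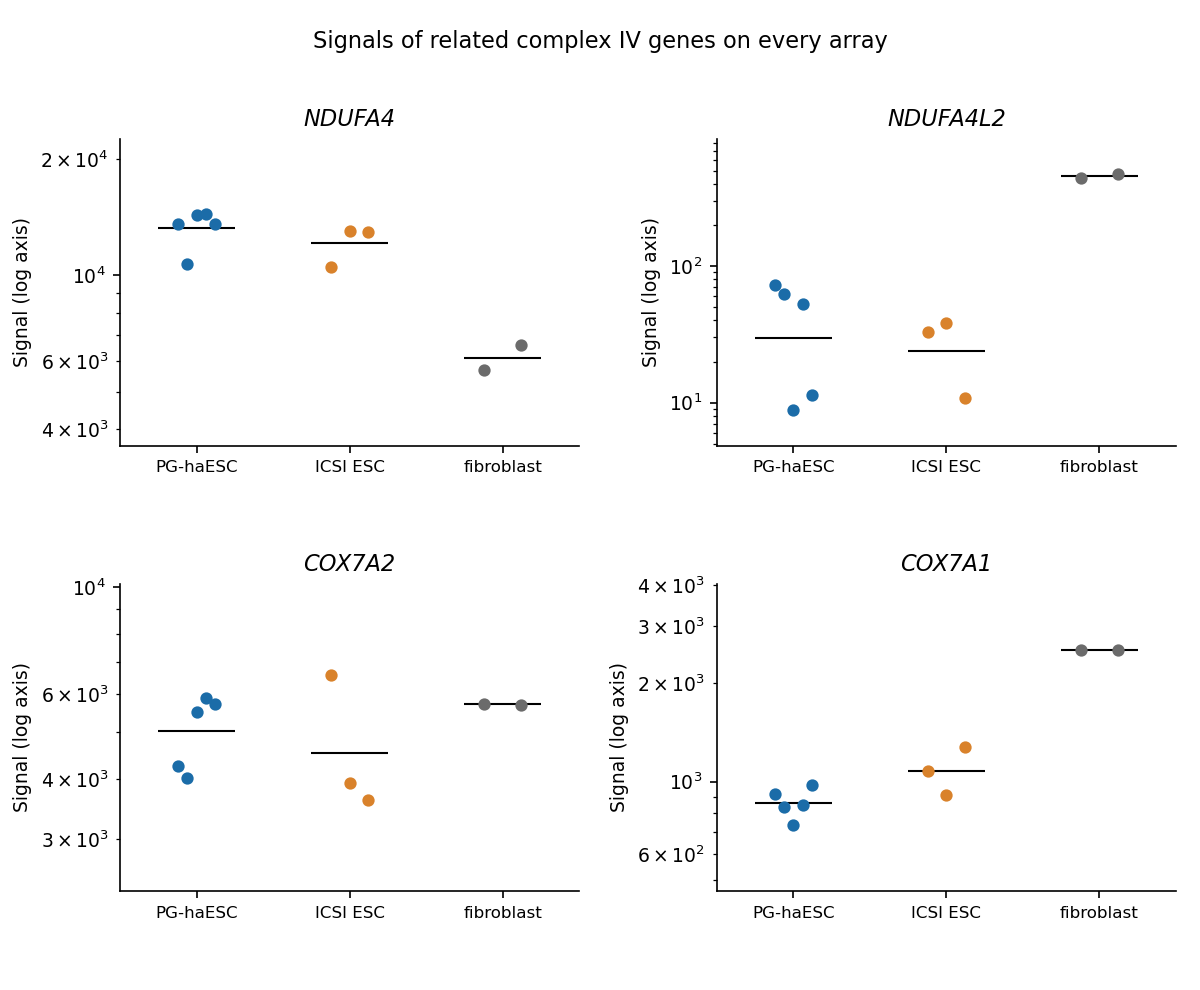
Signal on each array (log axis) of NDUFA4, NDUFA4L2, COX7A2 and COX7A1; points are arrays and black lines are geometric means. NDUFA4 is higher on stem cell arrays, COX7A1 and NDUFA4L2 are higher on fibroblast arrays, and the brightest probe set of COX7A2, drawn here, overlaps.

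In complex V, 7 of 14 members were higher in PG-haESC and 9 of 14 in ICSI ESC, with none lower. ATP5F1B, the catalytic beta subunit, read 17884, 14673, 15760, 16258 and 10872 in PG-haESC, 12977, 14254 and 14016 in ICSI ESC, and 6278 and 6021 in fibroblasts. All stem cell arrays exceeded both fibroblast arrays, with log2 changes of 1.21 ± 0.21 (adjusted p = 0.00076) and 1.16 ± 0.21 (adjusted p = 0.0011). ATP5F1C, the gamma subunit of the rotor, changed by 0.98 and 0.81, both called. With the mean of its probe sets ATP5F1C turned to -0.74 and -1.22, and the calls of ATP5F1B were lost. ATP5F1D, the delta subunit of the central stalk, was not higher, at -0.59 (adjusted p = 0.11) and -0.05 (adjusted p = 0.91).

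ATP5MC1, ATP5MC2 and ATP5MC3 encode the same mature c-subunit of the membrane ring. ATP5MC3 read 31082, 43617, 23973, 26156 and 25297 in PG-haESC, 34332, 26957 and 30789 in ICSI ESC, and 11254 and 11106 in fibroblasts. Its log2 change was 1.36 ± 0.28 (adjusted p = 0.0025) and 1.45 ± 0.28 (adjusted p = 0.0018), with no overlap. ATP5MC1 gave -0.03 and 0.43 and ATP5MC2 gave 0.36 and 0.50, and none of these was called. A further probe set carries ATP5G1, an older symbol of ATP5MC1 that the annotation keeps apart, so 1 gene may be counted under both names. Without it complex V gave 6 of 13 higher in PG-haESC and 8 of 13 in ICSI ESC, a count made after the values were seen. This probe set changed by 1.06 (adjusted p = 0.00068) and 0.83 (adjusted p = 0.0036). With the mean of its probe sets it turned to -0.42 and -0.22, and its call in ICSI ESC was lost with arrays averaged per line.

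No member was called between the haploid and the ICSI-derived stem cells. 0 of 63 were higher and 0 were lower with limma, beside 0.507% and 0.0687% of all genes, and 5 had an unadjusted p under 0.05, beside 8.789% of all genes. The log2 changes ran from -0.54 to 0.79 with a median of 0.06, beside -0.02 for all genes, and their median standard error was 0.18. By complex the medians were 0.05 for I, 0.05 for II, 0.11 for III, 0.13 for IV and -0.04 for V. A difference below the threshold does not show that the groups were equal.

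COX7B, a complex IV subunit and the sole member placed on the X chromosome, came nearest to a call. It read 23072, 18355, 21058, 18207 and 20543 in PG-haESC, 9618, 13037 and 13290 in ICSI ESC, and 9748 and 10948 in fibroblasts. Every PG-haESC array lay above every array of the other groups, and ICSI ESC overlapped with fibroblasts. The log2 change between the stem cell groups was 0.77 ± 0.17 (adjusted p = 0.085), and the gene was called with arrays taken as independent samples and with quantile normalization (adjusted p from 0.022 to 0.8 over 24 other settings). Against fibroblasts it changed by 0.97 (adjusted p = 0.0031) in PG-haESC and by 0.20 (adjusted p = 0.51) in ICSI ESC. The 380 tested genes placed on X had a median log2 change of 0.67 between PG-haESC and ICSI ESC, with quartiles of 0.33 and 0.96, and 36 of them were called higher. The 62 members not placed on X had a median of 0.06.

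The others with an unadjusted p under 0.05 were NDUFS7, NDUFV3, ATP5F1D and ATP5MC1. NDUFS7, a core subunit of complex I, read 5309, 5343, 6670, 5734 and 5548 in PG-haESC and 3767, 4496 and 3395 in ICSI ESC, without overlap, with a log2 change of 0.56 ± 0.16 (adjusted p = 0.23). NDUFV3 gave 0.79 ± 0.33 (adjusted p = 0.58) from a dim probe set. Against fibroblasts NDUFV3 was called higher in PG-haESC (limma), at 1.13 (adjusted p = 0.044). That call was lost when any 1 of the PG-haESC arrays was left out. ATP5F1D gave -0.54 ± 0.22 (adjusted p = 0.56), where ICSI ESC array 1 read 3928 and the other ICSI ESC arrays 2458 and 2090. ATP5MC1 gave -0.47 ± 0.20 (adjusted p = 0.61).

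**Figure D4:**
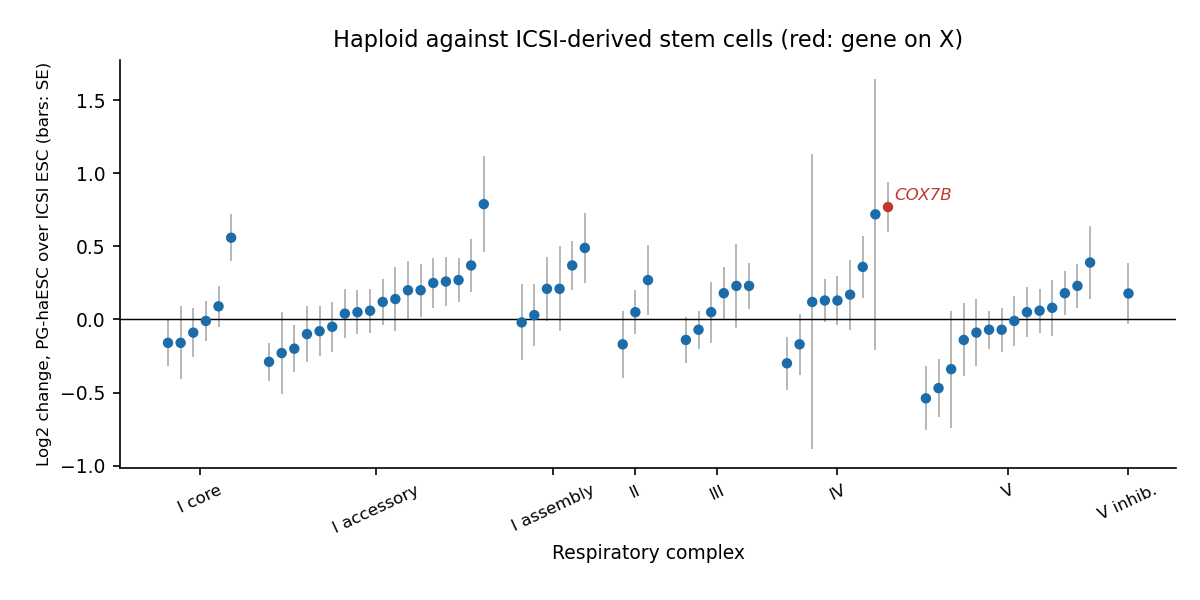
Log2 change of each tested gene between PG-haESC and ICSI ESC (vertical axis), grouped by complex; bars are standard errors and the red point is the gene on X. COX7B stands at 0.77, and none of the 63 genes has an adjusted p under 0.05.

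Single arrays stood out within the stem cell groups. ICSI ESC array 1 was the lowest of its group for 36 of 63 members, 57.14% beside 37.78% of all genes. It was the highest for 16 members, 25.4% beside 42.0% of all genes. Several other values set it apart. It had the highest fibroblast markers of its group, at 12.39, the highest spike-in signal (9467 against 4048 and 5698), the highest median signal (117.3 against 76.8 and 95.5) and passage 12 against 4 and 4. Their part in the result was not tested. PG-haESC array 1 was the highest of its group for 30 members, 47.62% beside 19.77% of all genes. PG-haESC array 2, with the highest spike-in signal of its group (11530), was the lowest for 24 members, 38.1% beside 23.92% of all genes. Without ICSI ESC array 1, the median log2 change of ICSI ESC against fibroblasts went from 0.47 to 0.61 for complex I and from 0.2 to 0.47 for complex IV.

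Several members have more than 1 probe set, and these did not always move together. Of 14 members called higher in PG-haESC against fibroblasts that had another tested probe set, 1 had another that was called higher and 4 had another called lower, 28.57% for the latter. Among 1328 genes of all kinds in the same position, 57.76% had another called higher and 6.325% another called lower. For ICSI ESC, 1 and 4 of 12 members gave 33.33% called lower, beside 6.432% of 1306 genes. This count was made after the values were seen. For NDUFV2 the dimmer probe set read 227 to 451 in PG-haESC, 263 to 541 in ICSI ESC, and 1147 and 1017 in fibroblasts, a log2 change of -1.72 (adjusted p = 0.01) and -1.43 (adjusted p = 0.028). For NDUFB4 it read 157 to 297, 113 to 272, and 915 and 826, a log2 change of -1.90 (adjusted p = 0.0068) and -2.17 (adjusted p = 0.0032). ATP5F1E, chosen after its values were seen, had a second probe set at 13.6 to 238 in PG-haESC, 15.8 to 156 in ICSI ESC, and 1688 and 1618 in fibroblasts. Which transcripts these dimmer probe sets detect was not tested.

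**Figure D5:**
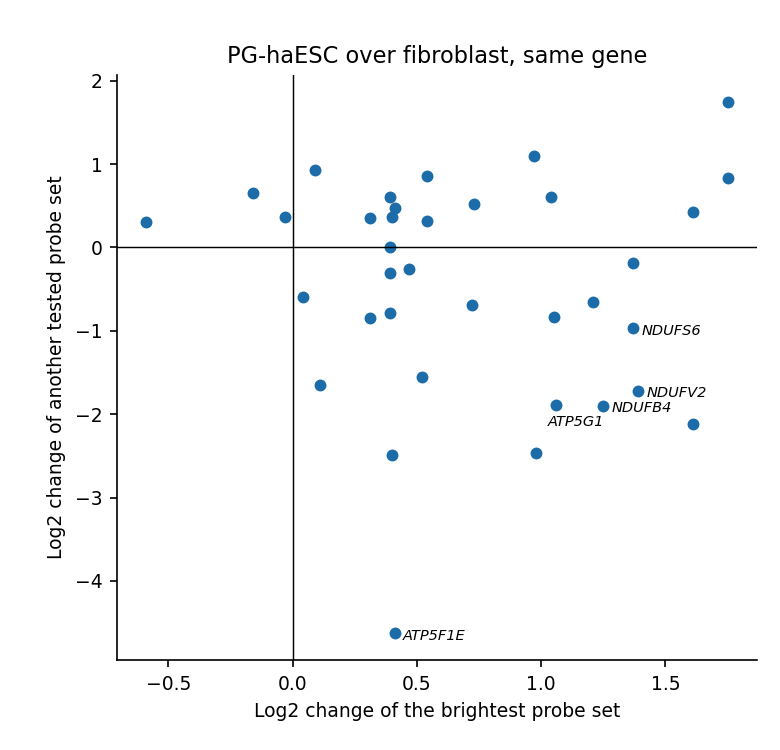
Log2 change between PG-haESC and fibroblasts for the brightest probe set of a gene (horizontal axis) and for each other tested probe set of that gene (vertical axis), 36 points from 27 genes. Of the 36 points, 19 lie below 0, and all 19 belong to genes whose brightest probe set was above 0. Only some of these are named, and not all of them were called.

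Genes around the respiratory chain were taken from lists outside the symbol rule. CYC1, the heme-bearing subunit of complex III, gave 0.64 (adjusted p = 0.073) and 0.56 (adjusted p = 0.12). The counts of these lists have to be read beside the 23.0% and 22.6% of all genes, and the 48.72% and 48.09% of bright genes, that were higher, and nothing particular to a list is read from them. Of 32 assembly factors of the complexes, 12 (37.5%) were higher in PG-haESC and 16 (50%) in ICSI ESC, and none was lower. Among them PET100, needed for complex IV assembly, changed by 1.89 (adjusted p = 1.1e-05) and 1.70 (adjusted p = 2.8e-05), COA6 by 1.82 and 1.81, and COA1 by 2.19 and 2.09. Of 17 genes of the citric acid cycle and pyruvate oxidation, 7 (41.18%) were higher and 1 lower in PG-haESC, and 7 and 3 in ICSI ESC. IDH3B, a subunit of the NAD-linked isocitrate dehydrogenase, changed by 1.98 and 1.89, and MDH2, the mitochondrial malate dehydrogenase, by 1.12 and 1.26.

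Of 13 genes of mitochondrial biogenesis, 5 (38.46%) were higher in each stem cell group. TFAM, which packages mitochondrial DNA, changed by 1.60 (adjusted p = 0.00083) and 1.69 (adjusted p = 0.0006), and SSBP1, its single-strand binding protein, by 1.26 and 1.60. Of 6 tested carriers and channels for ADP, ATP and phosphate, 4 (66.67%) were higher in PG-haESC and 5 (83.33%) in ICSI ESC, with the outer membrane channel VDAC3 at 1.25 and 1.17. Of 16 genes of the ubiquinone pathway and other donors, 4 (25%) were higher and 2 lower in PG-haESC and 4 and 1 in ICSI ESC, a share near that of all genes. COQ3, a methyltransferase of ubiquinone synthesis, changed by 0.84 and 1.10, and COQ4, also needed for that synthesis, was lower at -1.14 and -1.20. None of the genes on these lists was called between the stem cell groups with limma. No probe set was named for a mitochondrially encoded subunit.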

How the data were processed

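Total RNA of 10 samples had been amplified, labelled with biotin and hybridised to 1 array each, per the labels. The deposited values are linear signal intensity made by the authors with MAS5, per the submitters' processing notes, and its version is not stated there. No detection calls were used, so the floor of an unexpressed probe set is unknown, and the number of arrays limits the precision. Array median signals ran from 76.8 to 132.7.

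Of 52865 probe sets, 158 controls were left out, and the 34139 above the array median on at least 2 arrays were tested with limma 3.58.1 in R 4.3.3: log2 signal, group means over all 10 arrays, cell line as a random block (correlation 0.29), a variance trend and two-sided tests. P-values were adjusted by Benjamini-Hochberg over all probe sets tested and called under 0.05. Log2 changes weight arrays by line and can differ from ratios of group means. The test was also run on simulated data, with levels and spread taken from the stem cell arrays and changes added to the PG-haESC group alone. That run does not reach the spread of the fibroblast arrays, so it is no support for the calls against them. Symbols came from the supplied probe annotation and chromosomes from the assembly T2T-MFA8v1.1. Of 95 matching symbols in that assembly's table, 63 had a chosen probe set. NDUFA4 and NDUFA4L2 were counted with complex IV.

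The members, lists and tests were chosen with earlier results of these data known. Named members were up to 4 per class with the smallest p in each comparison, the 5 largest changes called in each direction, members on X and isoform pairs. From each other list up to 3 genes with the smallest p were eligible. Alternatives changed the handling of line, an offset of 32, the normalization, the filter, the variance model, the probe set of a gene, dim signals, the threshold and the arrays included. Some alternatives were added after the data were seen. These left out both arrays with the highest spike-in signals, NDUFA4L2 from complex IV or from all members, and ATP5G1 from complex V. Complex IV was also limited to genes above the array median on all arrays. Python 3.11.15 with matplotlib 3.10.9 made the figures.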

Additional observations from a re-analysis of the deposited data

Results flagged for a closer look

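Among 52 sets of values in the PG-haESC group, 5 had 1 array set apart from the others by Dixon's criterion. Chance alone gives about 5% where arrays and sets are independent. Here array 5 was of another line than the other 4 arrays, and means of a complex share values with single genes. That rate therefore does not strictly apply. PG-haESC array 1 read 21028 for ATP5F1C, above the other 4 arrays, and had the highest mean log2 signal of complex I, at 12.35. PG-haESC array 5, the array of line MPH2, read 455.9 for ATP5MC2 and 12479 for COX5A, both below the other arrays of the group. PG-haESC array 2 read 10700 for NDUFA4, also below the others. The cause was not tested.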

How the results depend on the processing

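No paired analysis was possible because the labels number only the fibroblast samples as replicates, and the other numbers are line names or were given in accession order. The line correlation could not be estimated for the ICSI ESC and fibroblast arrays alone, so that fit had no block.

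Between the stem cell groups, 1 member was called higher with independent samples and 1 with quantile normalization. For PG-haESC against fibroblasts, members higher fell to 17 with arrays averaged per line and 20 at adjusted p under 0.01. Members lower were 4 with independent samples, with the mean of all probe sets and with the 2 groups alone, and 1 per line, with the 75th percentile filter and at 0.01. Leaving out each array gave 22 to 41 higher and 1 to 4 lower. For ICSI ESC, members higher were 17 per line, 18 with the mean of probe sets and 18 at 0.01, members lower were 1 per line, centred and at 0.01, and leaving out each array gave 19 to 32 and 1 to 3. Without a fibroblast array NDUFA4L2 no longer entered the test.

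Centring arrays on their medians moved the median of all genes from 0.06 to 0.39 (PG-haESC) and from 0.08 to 0.36 (ICSI ESC), and quantile normalization moved it to 0.24 in each. The members' median minus that of all genes was 0.59, 0.59 centred and 0.31 with quantiles for PG-haESC, and 0.47, 0.47 and 0.20 for ICSI ESC. Complex medians I to V, PG-haESC against fibroblasts, were 1.05, 0.58, 0.87, 1.24 and 0.97 centred. Quantiles gave 0.56 for I, 0.32 for III and 0.7 for IV. The mean of probe sets gave 0.53 for I and 0.32 for V, and dim signals at the array median 0.56 for IV. For ICSI ESC they were 0.75, 0.71, 0.86, 0.48 and 0.93 centred. Quantiles gave 0.35 for III, -0.12 for IV and 0.47 for V, and the mean of probe sets 0.35 for I and 0.43 for V. With NDUFA4L2 left out IV was 0.59, but over the 7 genes above the array median on all arrays it was 0.2, as in the main fit. Without both arrays of high spike-in signal I to IV were 0.61, 0.6, 0.72 and 0.47. Between the stem cell groups complex III was -0.01 with the mean of probe sets. Leaving out each array gave -0.02 to 0.19 for III and -0.06 to 0.07 for V there, 0.58 to 0.71 for V in PG-haESC, and 0.46 to 0.62 for I, 0.28 to 0.6 for II, 0.5 to 0.72 for III and 0.12 to 0.69 for IV in ICSI ESC.

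With the mean of all probe sets, log2 changes against fibroblasts changed sign for ATP5F1C (-0.74 and -1.22), ATP5G1 (-0.42 and -0.22), NDUFB4 (-0.33 and -0.48) and NDUFV2 (-0.16 and -0.06), PG-haESC then ICSI ESC, and for UQCRB in PG-haESC (-0.03). Of 28 named members called in PG-haESC, 10 kept the call under all 24 alternatives, and of 24 in ICSI ESC, 6 did. Causes were not tested.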

Other observations

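6 probe sets carry a mitochondrial name of the array's design and no gene in the annotation, so they belong to no gene above. The probe set MmuMitochon.12 read 809, 790, 854, 802 and 657 in PG-haESC, 1523, 1738 and 1623 in ICSI ESC, and 784 and 741 in fibroblasts. Every ICSI ESC array was above every other array, with a log2 change of -1.10 ± 0.17 for PG-haESC against ICSI ESC (limma, adjusted p = 0.022) and 1.09 for ICSI ESC against fibroblasts (adjusted p = 0.0014). The probe set MmuMitochon.3 was higher in both stem cell groups than in fibroblasts, by 1.67 (adjusted p = 0.01) and 1.81 (adjusted p = 0.0066). MmuMitochon.4 read 46734 to 99784 on the 10 arrays and was called in no comparison. These probe sets were looked at after the data were seen.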
